A study of Mus musculus with 8 samples.

Results

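The semaphorins, plexins and neuropilins, a family of guidance ligands and their receptors, were examined in the forming heart with and without Isl1. The members were all genes of the deposited table whose symbols belonged to the semaphorin classes 3 to 7, the plexins A to D, or the neuropilins, with 1 transcript entry kept per symbol, the one with the highest summed count. This gave 31 genes of 20701 gene symbols: 20 semaphorins, 9 plexins and 2 neuropilins. RNA was sequenced from 4 Isl1-/- (knockout) and 4 wild-type C57BL/6 embryos at E8.75, all with 6 somites, and each library held the tissue of a single embryo. The dissected tissue combined hearts with the adjoining pharyngeal mesoderm, which holds the progenitors of the second heart field. The labels described no further allele or treatment for either group. Because the tissue was a mixture, fewer cells of a type and less RNA per cell cannot be told apart in any value below.

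Semaphorins are secreted or membrane-bound signals that bind plexins, whose intracellular part acts on small GTPases and thereby on the cytoskeleton and on adhesion. Most secreted class 3 semaphorins bind a neuropilin, which holds the ligand while a plexin of type A or D transmits the signal, whereas membrane-bound semaphorins generally bind plexins directly, and neuropilins serve VEGF as well. In the embryonic heart these genes are known for guiding cardiac neural crest into the outflow tract, for septation of that tract and for patterning of the vessels around it, with Sema3c, Plxnd1, Plxna2 and both neuropilins among the best-known players.

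Counts summed to 23480456 to 26153048 per library in wild-type and to 18916449 to 25047024 in knockout embryos, and the 31 genes together took 34829 to 47518 reads of a library, or 0.165% to 0.199% of the counts. Isl1 itself, the targeted LIM-homeodomain gene, lay at 9.72 to 26.9 CPM (counts per 1e6 reads after TMM scaling) in wild-type and at 1.78 to 2.40 CPM in knockout embryos (log2 fold change -3.00, SE 0.36, edgeR FDR 0.0041). Among marker lists, all 8 cardiomyocyte genes had lower estimates in knockout embryos and 7 of them passed the FDR threshold, and their summed level was 2844 to 4230 CPM in wild-type and 1505 to 2296 CPM in knockout embryos. The 8 neural crest genes all had higher estimates without any passing, with sums of 510 to 704 CPM in wild-type and 689 to 851 CPM in knockout embryos, and 7 of 8 neural tube genes had higher estimates, again with none passing (245 to 288 and 255 to 353 CPM). Of 8 endothelial genes 7 had lower estimates and none passed (362 to 465 and 290 to 414 CPM), and of the 7 genes tested for pharyngeal and second heart field mesoderm 4 had lower estimates and none passed (100 to 134 and 95.8 to 122 CPM). All 6 primitive erythroid genes had higher estimates and none passed, with sums of 361 to 2323 CPM in wild-type and 1232 to 3064 CPM in knockout embryos. Wild-type embryo 3 had the lowest cardiomyocyte, neural crest and erythroid sums of its group (2844, 510 and 361 CPM). It also had the highest endothelial, foregut endoderm and pharyngeal mesoderm sums (465, 529 and 134 CPM). Of these, only its neural crest sum passed the Dixon rule for outlying embryos used at the end. Leaving it out gave more genes with an unadjusted p under 0.05, and more with separate groups, than leaving out any other embryo. Both counts are given below with and without it. The labels gave the molecule of knockout embryo 2 as total RNA, and that of the other 7 embryos as polyA RNA.

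No semaphorin, plexin or neuropilin passed an FDR of 0.05 in the comparison of knockout with wild-type embryos. Of the 31 genes, 30 had enough reads to be tested, and their lowest FDR was 0.142 (edgeR), against 137 of 14075 genes tested, or 0.973%, that passed over the whole table (15 higher, 0.107%, and 122 lower, 0.867%). None passed a 1.5-fold change together with an unadjusted p under 0.05, a threshold that 3.88% of all genes met. An unadjusted p under 0.05 was reached by 3 genes, the ligands Sema4g, Sema5b and Sema6c, all higher in knockout embryos. This was 10% of the members tested, against 17.4% of all genes tested (7.37% higher and 10.1% lower). For Sema4g and Sema5b every knockout value lay above every wild-type value, which made 6.67% of the members tested, while 10.3% of all genes tested had such separate groups (3.96% higher and 6.33% lower). Estimates were above 0 for 21 members and below 0 for 9, with a median log2 fold change of 0.14, and over all genes 51.2% were above 0 with a median of 0.01.

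The ligands and the receptors differed in how tightly their changes were bounded. Among the 20 semaphorins, 16 estimates were above 0, with a median log2 fold change of 0.18, and the 95% interval lay inside a 1.5-fold change in either direction for 9 of them. Among the 10 receptors tested, 5 estimates were above and 5 below 0, with a median of 0.01, and all 10 intervals lay inside 1.5-fold. Over both kinds this held for 19 of 30 members, or 63.3%, against 68.9% of all genes tested. The median standard error was 0.10 for the receptors and 0.16 for the semaphorins. Whether the ligands as a group changed differently from the receptors was not tested.

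**Figure D1:**
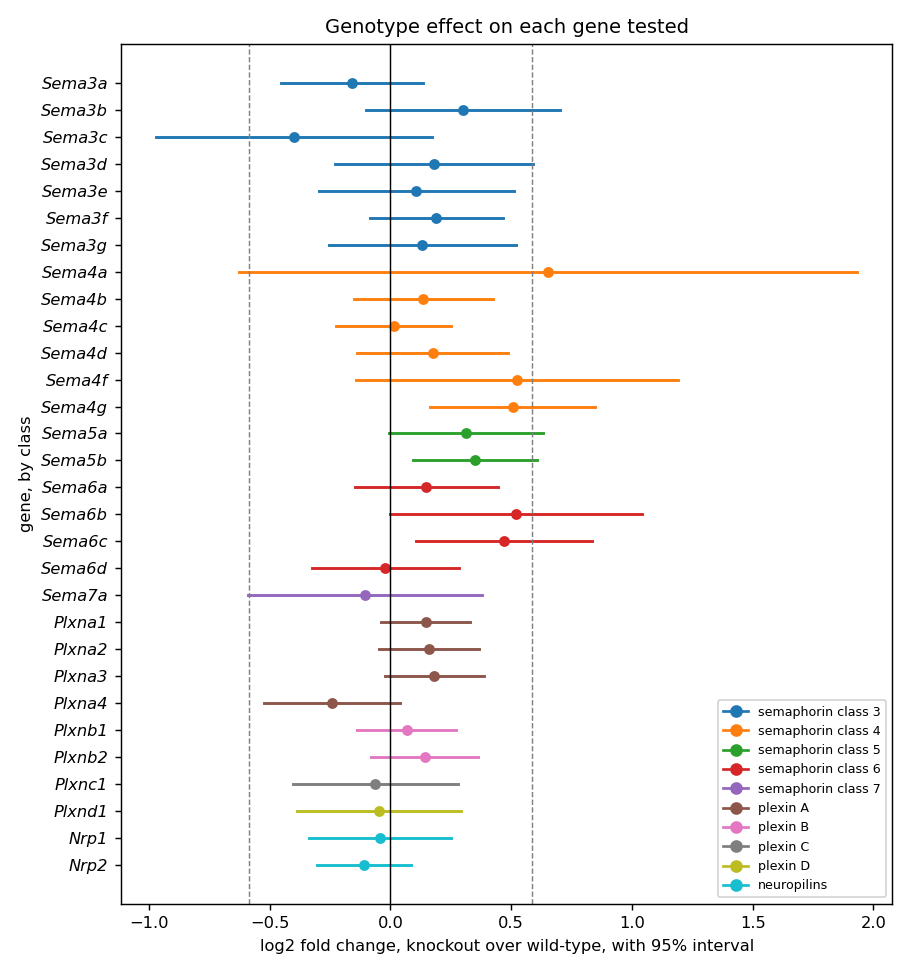
Log2 fold change of knockout over wild-type embryos (horizontal axis) for each of the 30 genes tested, ordered by class on the vertical axis, with points for the edgeR estimate and bars for its 95% interval; dashed lines mark a 1.5-fold change either way. The bars of all 10 receptors stay between the dashed lines, whereas those of Sema4g, Sema5b and Sema6c lie to the right of 0 and Sema4a has the widest bar.

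Wild-type embryo 3 decided several of these counts. Without it, 13 of 30 members tested had an unadjusted p under 0.05, against 3369 of 14178 genes (23.8%). Of the 13, 11 were higher and 2 lower in knockout embryos. Groups did not overlap for 9 of 30 members (8 higher and 1 lower), against 3039 of 14178 genes (21.4%). The 9 genes were Sema3f, Sema4f, Sema4g, Sema5b, Sema6b, Sema6c, Plxna1 and Plxnb2, which lay higher in knockout embryos, and Sema3c, which lay lower. In that fit 4 of 30 members passed 1.5-fold with an unadjusted p under 0.05, against 4.75% of all genes. These were Sema4f, Sema4g, Sema6b and Sema3c. Still no member passed the FDR threshold, the lowest value being 0.0517 for Sema4g (edgeR), while 490 of 14178 genes passed it over the whole table. Leaving out an embryo that alone made groups overlap separates them by construction, so these counts only describe the dependence on that embryo.

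The DNA just before the start sites of 3 ligand genes is shown here: Sema4g and Sema5b were chosen because their groups did not overlap, and Sema3c because it had the largest decrease, although its groups overlapped. Each sequence holds the 250 bases before the annotated start, read on the + strand from RefSeq on GRCm38.p6, which is not the mm9 build of the deposited table. They lie at chr19:44989094-44989343 for Sema4g, at chr16:35541112-35541361 for Sema5b and at chr5:17574566-17574815 for Sema3c. Capitals mark TAAT or ATTA, the core letters that homeodomain proteins such as Isl1 are known to prefer, searched on both strands.
Sema4g: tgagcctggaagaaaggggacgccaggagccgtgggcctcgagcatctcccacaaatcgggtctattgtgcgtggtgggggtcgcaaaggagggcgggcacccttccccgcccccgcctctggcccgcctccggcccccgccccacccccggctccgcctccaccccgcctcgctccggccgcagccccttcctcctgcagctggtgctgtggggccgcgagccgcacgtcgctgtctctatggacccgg
Sema5b: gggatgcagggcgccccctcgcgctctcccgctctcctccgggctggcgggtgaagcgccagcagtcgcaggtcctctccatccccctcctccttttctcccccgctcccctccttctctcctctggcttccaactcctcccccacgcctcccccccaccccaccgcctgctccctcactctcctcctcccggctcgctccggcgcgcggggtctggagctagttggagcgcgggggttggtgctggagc
Sema3c: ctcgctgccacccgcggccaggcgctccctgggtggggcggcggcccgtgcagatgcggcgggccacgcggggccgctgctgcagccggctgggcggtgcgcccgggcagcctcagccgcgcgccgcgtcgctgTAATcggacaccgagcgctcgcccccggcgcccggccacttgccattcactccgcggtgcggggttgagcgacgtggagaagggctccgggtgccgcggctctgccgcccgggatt
The core letters were absent from the windows of Sema4g and Sema5b and occurred once in that of Sema3c. RefSeq promoters were found for 26 of the 31 members, and 14 of their 37 promoters (37.8%) held the letters, compared with 54.9% of 32851 promoters of all genes. The members' promoters had a median GC content of 64%, against 52.4% over all promoters, which leaves fewer A and T bases in the window. The windows say nothing about binding, which RNA levels do not measure.

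Levels of different genes were compared per length, as CPM per kilobase of the kept transcript averaged over all 8 embryos. The receptors held the top of this order. Plxnb2 was highest at 40.2 CPM per kb, followed by Nrp2 at 29.0, Nrp1 at 27.7 and Plxna1 at 27.3. Plxnb2 was the highest within every embryo, although its lowest value (32.2 CPM per kb, wild-type embryo 4) lay inside the ranges of Nrp1 and Nrp2. Nrp2, Nrp1 and Plxna1 overlapped between embryos and cannot be ranked against each other. The most abundant ligands were Sema4c at 16.5 CPM per kb, Sema3f at 12.7 and Sema3a at 9.41. The lowest were Sema6b, Sema4f and Sema7a at 0.865, 0.778 and 0.586. The ranges of neighbouring genes in both orders overlapped between embryos. In all, semaphorins summed to 88.9 ± 7.37 CPM per kb in wild-type and 96.5 ± 3.11 in knockout embryos, plexins to 121.8 ± 10.01 and 130.9 ± 4.20, and neuropilins to 58.3 ± 4.64 and 55.3 ± 5.53 (SD, n = 4 each). Plxnb3, a plexin known to bind Sema5a, was at 0 to 4 reads per library and 11 reads in all, and was not tested.

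**Figure D2:**
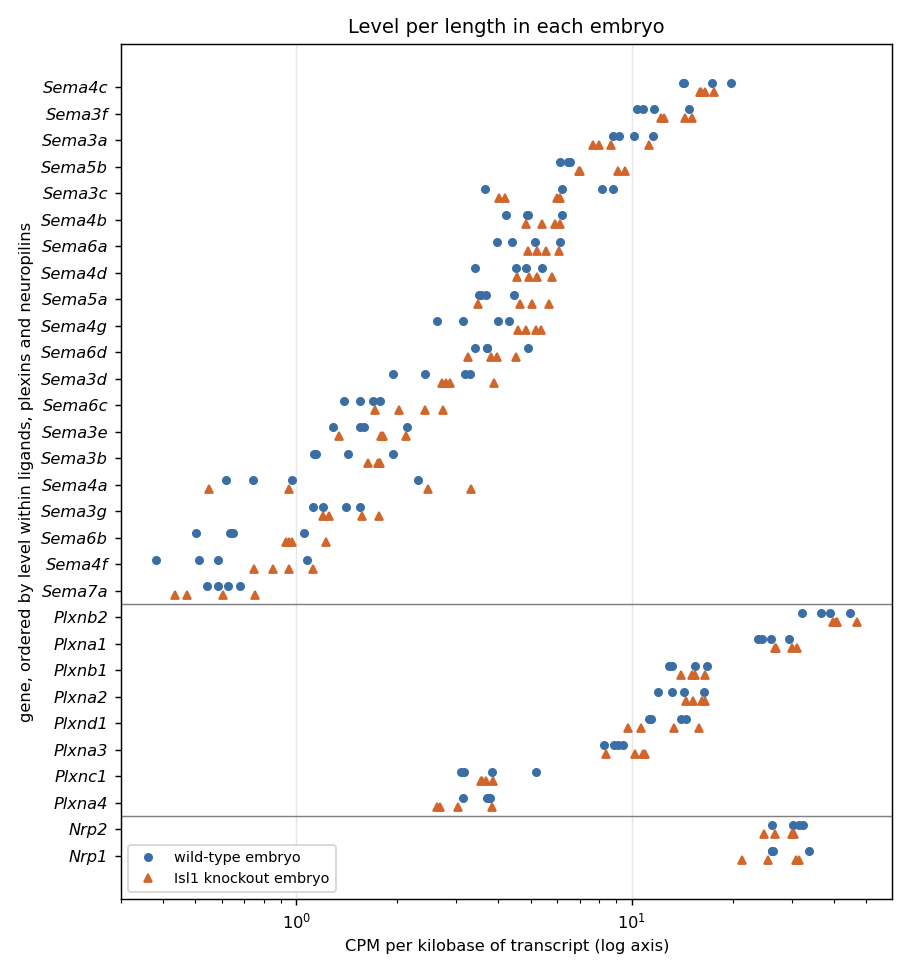
CPM per kilobase of transcript (horizontal log axis) in each wild-type embryo (circles) and each knockout embryo (triangles) for the 30 genes tested, ordered by level within semaphorins, plexins and neuropilins. Plxnb2, Plxna1 and both neuropilins lie to the right of all semaphorins, and circles and triangles overlap in every row except those of Sema4g and Sema5b.

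The 7 secreted class 3 semaphorins are the main partners of neuropilins. None had an unadjusted p under 0.05 with all embryos, and Sema3c and Sema3f did without wild-type embryo 3. Over all genes tested, 17.4% did with all embryos and 23.8% without that embryo. Estimates were above 0 for 5 and below 0 for 2, with a median log2 fold change of 0.13, and the summed level of the class was 179.5 ± 19.6 CPM in wild-type and 175 ± 16.6 CPM in knockout embryos. The 2 genes with lower estimates, Sema3a and Sema3c, were with Sema3f the most abundant genes of the class per length.

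Sema3c, a chemoattractant of cardiac neural crest that the outflow tract needs for septation, had the largest decrease of all members. It had levels of 30.5, 43.3, 18.04 and 40.2 CPM in the wild-type group (embryos 1 to 4) and of 20.7, 19.8, 29.6 and 30.2 CPM in the knockout group (embryos 1 to 4). Wild-type embryo 3 was the lowest of all 8 embryos, so the groups overlapped, and it also had the lowest cardiomyocyte sum of its group. The means were 33.0 ± 11.4 and 25.1 ± 5.57 CPM, with a log2 fold change of -0.40 (SE 0.26, edgeR FDR 0.451). Without that embryo the 3 remaining wild-type values all lay above the 4 knockout values, and the log2 fold change was -0.60 (edgeR unadjusted p 0.00872, FDR 0.0933). Removing the 1 embryo that made the overlap fixed this separation in advance, so that p cannot be read as evidence of a decrease. Cardiomyocyte markers fell across the same comparison, and their part in the Sema3c value was not tested.

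Sema3a, a repellent of growing axons that acts through Nrp1, ranged from 60.1 to 79.2 CPM in wild-type and from 52.4 to 77.0 CPM in knockout embryos. Its log2 fold change was -0.16 (edgeR FDR 0.571), and the wild-type and knockout ranges overlapped widely. Sema3f, the classical ligand of Nrp2, had levels of 34.5, 38.7, 49.0 and 35.8 CPM in wild-type and of 50.3, 47.9, 40.5 and 41.4 CPM in knockout embryos. All 4 knockout embryos exceeded 3 of the wild-type embryos, while wild-type embryo 3 lay among them, and the log2 fold change was 0.19 (edgeR FDR 0.459). Of the remaining class 3 genes, Sema3e, which binds Plxnd1 without a neuropilin and shapes vessels, gave 0.11, Sema3d gave 0.18, Sema3g gave 0.13 and Sema3b gave 0.30 on the log2 scale, with FDR values from 0.420 to 0.799. Sema3a, Sema3c, Sema3d and Sema3e lie within 4852921 bases of chromosome 5, and their estimates had both signs.

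The 6 class 4 semaphorins are transmembrane proteins with an immunoglobulin-like domain that bind mainly B plexins. All 6 estimates were above 0, with a median log2 fold change of 0.34. Sema4g had an unadjusted p under 0.05, against 17.4% of all genes tested. Without wild-type embryo 3 it was joined by Sema4b and Sema4f, against 23.8% of all genes. The class sum was 126 ± 21.4 CPM in wild-type and 141 ± 6.94 CPM in knockout embryos, and the groups overlapped because wild-type embryo 3 had the highest sum of all 8 embryos.

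Sema4g, a class 4 ligand known to act through Plxnb2 together with Sema4c, had the smallest p of all members. It had levels of 13.4, 17.1, 18.5 and 11.3 CPM in the wild-type group (embryos 1 to 4) and of 20.8, 23.0, 22.2 and 19.6 CPM in the knockout group (embryos 1 to 4). Each knockout embryo was above each wild-type embryo, although the gap between the nearest embryos was narrow. The means were 15.1 ± 3.33 and 21.4 ± 1.496 CPM, a ratio of 1.42, with a log2 fold change of 0.51 (SE 0.15, 95% interval 0.17 to 0.85, unadjusted p 0.00789, edgeR FDR 0.142). In the DESeq2 Wald test, the kind of test the study used, its adjusted p was 0.028, and 5.04% of all genes passed there. Sema4g lies on chromosome 19 at 45063591 to 45077887 (mm9).

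The partner ligand Sema4c, the most abundant semaphorin per length, did not follow. It had levels of 56.0, 55.4, 77.0 and 67.8 CPM in wild-type and of 68.7, 62.3, 63.0 and 64.6 CPM in knockout embryos. The knockout values all fell within the wild-type range, and the log2 fold change was 0.01 (95% interval -0.23 to 0.25, edgeR FDR 0.959), which bounds any change well below 1.5-fold. Sema4b and Sema4d, the latter a ligand of Plxnb1, gave 0.14 and 0.17 on the log2 scale (edgeR FDR 0.625 and 0.559). Sema4f, at 1.55 to 4.38 CPM in wild-type and 3.03 to 4.56 CPM in knockout embryos, gave 0.52 (SE 0.30, edgeR FDR 0.401), and its interval reached from -0.14 to 1.19.

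Sema4a, known from immune cells and the retina, varied more between embryos of a group than any other member tested, and its values are described here because of that spread. It had levels of 2.38, 3.10, 7.42 and 1.98 CPM in wild-type and of 3.05, 10.7, 7.90 and 1.76 CPM in knockout embryos, with coefficients of variation of 67.5% and 71.1%. Wild-type embryo 3 and knockout embryos 2 and 3 were high, and the other 5 embryos were low, irrespective of genotype. The log2 fold change of 0.65 was the highest estimate among the members but had an interval from -0.63 to 1.93 (edgeR FDR 0.597), and it ranged from 0.18 to 1.23 as single embryos were left out.

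The same 3 embryos were high for Ttr, transthyretin, an abundant secreted protein of visceral and yolk sac endoderm that was on the endoderm marker list. Ttr had levels of 84.8, 144, 270 and 41.7 CPM in wild-type and of 36.5, 327, 282 and 50.4 CPM in knockout embryos. Timd2, which encodes a receptor reported for Sema4a and was singled out after its values were seen, was at 2.67, 5.01, 7.501 and 0.950 CPM in wild-type and of 0.657, 11.1, 8.99 and 1.32 CPM in knockout embryos. All 3 genes thus put wild-type embryo 3 and knockout embryos 2 and 3 above the others. The summed foregut endoderm list of 7 genes, in which 5 estimates were above 0 and none passed, was 244 to 529 CPM in wild-type and 225 to 602 CPM in knockout embryos. Ttr was part of that sum, at 270 of 529 CPM in wild-type embryo 3 and 327 of 602 CPM in knockout embryo 2. In knockout embryo 1 it was 36.5 of 225 CPM. The sum is therefore no reading separate from Ttr. The part of endoderm in the dissected tissue in the Sema4a values was not tested.

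**Figure D3:**
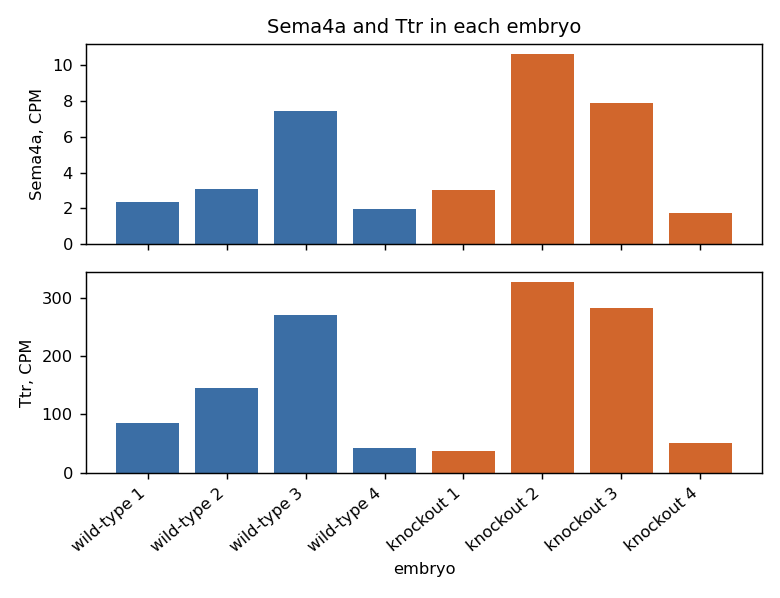
CPM of Sema4a (upper panel) and of the endoderm marker Ttr (lower panel) in each of the 8 embryos, 1 bar per embryo with the axis starting at 0, wild-type in blue and knockout in orange. Wild-type embryo 3 and knockout embryos 2 and 3 have the 3 highest bars in both panels.

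Class 5 semaphorins carry thrombospondin repeats and bind A plexins in the retina. Both members had estimates above 0. An unadjusted p under 0.05 was reached by Sema5b with all embryos and by both without wild-type embryo 3. The shares of all genes tested were 17.4% and 23.8%. Sema5b had levels of 27.6, 29.6, 29.5 and 29.3 CPM in wild-type and of 43.3, 31.8, 41.4 and 31.6 CPM in knockout embryos. The wild-type embryos were nearly equal, knockout embryos 2 and 4 lay just above them and knockout embryos 1 and 3 far above. The means were 29.0 ± 0.925 and 37.0 ± 6.22 CPM, a ratio of 1.28, with a log2 fold change of 0.35 (SE 0.12, unadjusted p 0.0124, edgeR FDR 0.173). Sema5b lies on chromosome 16 at 35541231 to 35664818 (mm9). Sema5a, at 37.7 to 48.0 CPM in wild-type and 37.5 to 61.1 CPM in knockout embryos, gave 0.31 (unadjusted p 0.0544, edgeR FDR 0.299). Together the pair summed to 67.3 to 77.5 CPM in wild-type and 78.9 to 93.5 CPM in knockout embryos. Class 5 was 1 of 2 classes whose sums did not overlap between the groups, and Sema5b, 1 of its 2 genes, also separated by itself. The gap between the nearest embryos was narrow. Over all genes tested 10.3% had separate groups, and no such share was computed for sums of several genes.

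Class 6 semaphorins are transmembrane ligands of A plexins. Estimates were above 0 for 3 of 4 genes, with a median log2 fold change of 0.31. An unadjusted p under 0.05 was reached by Sema6c with all embryos and by Sema6a, Sema6b and Sema6c without wild-type embryo 3. The shares of all genes tested were 17.4% and 23.8%. The class sum was 68.5 ± 8.88 CPM in wild-type and 75.6 ± 7.11 CPM in knockout embryos. Sema6c had levels of 5.72, 6.39, 7.33 and 6.96 CPM in wild-type and of 11.2, 7.05, 8.31 and 9.99 CPM in knockout embryos, and a single pair of embryos, knockout 2 and wild-type 3, overlapped. Its log2 fold change was 0.47 (SE 0.16, unadjusted p 0.0164, edgeR FDR 0.190). Sema6b gave 0.52 (unadjusted p 0.0512, edgeR FDR 0.291) at 1.92 to 4.05 CPM in wild-type and 3.56 to 4.70 CPM in knockout embryos, again with wild-type embryo 3 as the one that overlapped. Sema6a gave 0.15 (edgeR FDR 0.601), and Sema6d, known for a role in chamber formation of the chick heart, gave -0.02 with an interval of -0.33 to 0.28 (edgeR FDR 0.950). The single class 7 gene, the GPI-anchored Sema7a, was at 1.41 to 2.45 CPM over both groups and gave -0.10 (edgeR FDR 0.836).

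Neural crest and neural tube markers also had mostly higher estimates in knockout embryos, with none past the FDR threshold and sums that overlapped between groups. The neural tube sum was 353 CPM in knockout embryo 1. In the other knockout embryos it was 255 to 271 CPM, inside the wild-type range of 245 to 288 CPM. Semaphorins of classes 4 to 6 are widely expressed in neural tissue. Hes5, a Notch target of neural progenitors and the neural tube marker with the smallest p, was at 2.55 to 4.37 CPM in wild-type and 6.07 to 11.6 CPM in knockout embryos (log2 fold change 1.18, edgeR FDR 0.0683). It had the highest estimate of its list, whose median log2 fold change was 0.30. The part of neural tissue in the values of Sema4g, Sema5b and Sema6c was not tested.

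**Figure D4:**
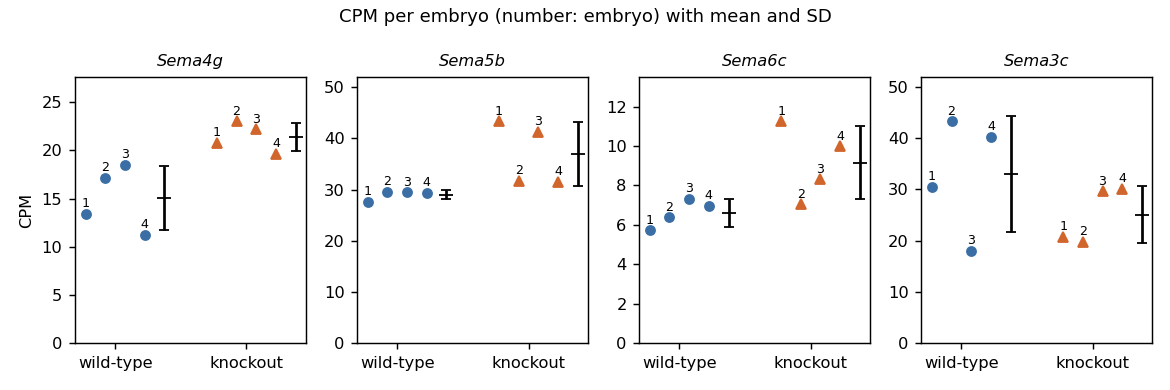
CPM (vertical axis, from 0) in each wild-type embryo (circles) and knockout embryo (triangles), numbered by embryo, for Sema4g, Sema5b, Sema6c and Sema3c, with the mean and SD of each group of 4. Triangles lie above all circles for Sema4g and Sema5b, a single pair overlaps for Sema6c, and wild-type embryo 3 is the lowest point for Sema3c.

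The plexins transmit the semaphorin signal. None of the 8 tested had an unadjusted p under 0.05 with all embryos, while 17.4% of all genes did. Without wild-type embryo 3 there were 3, where 23.8% of all genes were under that p. These were Plxna1 (edgeR unadjusted p 0.0145), Plxnb2 (0.0227) and Plxna4 (0.0413), with edgeR FDR values of 0.114, 0.142 and 0.190. Plxna1, a receptor of class 3 and class 6 semaphorins, had levels of 219, 234, 265 and 214 CPM in wild-type and of 269, 280, 242 and 241 CPM in knockout embryos. All knockout embryos exceeded wild-type embryos 1, 2 and 4, while wild-type embryo 3 reached the knockout range, and the log2 fold change was 0.15 (95% interval -0.04 to 0.33, edgeR FDR 0.399). Plxna2, which takes part in the guidance of cardiac neural crest, was at 132, 181, 145 and 157 CPM in wild-type and 160, 167, 181 and 178 CPM in knockout embryos. The log2 fold change of 0.16 (95% interval -0.05 to 0.37, edgeR FDR 0.413) was no larger than the spread within wild-type embryos. Plxna3 gave 0.18 (edgeR FDR 0.343). Plxna4 went the other way, from 45.1 ± 3.91 to 38.1 ± 6.93 CPM (log2 fold change -0.24, SE 0.13, edgeR FDR 0.355), with knockout embryo 4 at 48.0 CPM above all wild-type embryos and the other 3 knockout embryos below all of them.

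The summed A plexins amounted to 459 to 520 CPM in wild-type and 526 to 543 CPM in knockout embryos. This was the second class whose groups did not overlap, at a log2 ratio of 0.12 between the group means. Of single genes tested 10.3% had separate groups, and no such share was computed for sums of several genes. In summed deposited RPKM, which weight transcripts by length and carry no TMM scaling, the log2 ratio was 0.19, and in summed CPM per kilobase, with that scaling, it was 0.13. The other 8 class sums overlapped between groups, as the plot of class sums shows. Without wild-type embryo 3 the class 4 and B plexin sums also separated. The class 4 sum was then 106 to 123 CPM in wild-type and 132 to 147 CPM in knockout embryos. The B plexin sum was 342 to 364 and 389 to 427 CPM. That embryo alone had made both sums overlap, so their separation without it was fixed in advance. Of single genes 21.4% separated in that fit, and no such share was computed for sums.

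Plxnb2, the receptor shared by Sema4c and Sema4g and the most abundant member per length, had levels of 239, 253, 291 and 209 CPM in wild-type and of 264, 306, 266 and 259 CPM in knockout embryos. Here too wild-type embryo 3 alone kept the groups from separating, and the log2 fold change was 0.14 (SE 0.10, 95% interval -0.08 to 0.36, edgeR FDR 0.488). Plxnb1, the receptor of Sema4d, gave 0.07 (edgeR FDR 0.748). Plxnc1, the receptor of Sema7a, gave -0.06 (edgeR FDR 0.863), with wild-type embryo 3 at 36.4 CPM above a range of 21.7 to 27.02 CPM in the other 7 embryos. Plxnd1, the endothelial plexin that outflow tract and vessel patterning require, was at 96.2, 78.4, 100 and 77.3 CPM in wild-type and of 73.1, 91.5, 67.1 and 109 CPM in knockout embryos. Embryos of both genotypes were mixed in the order of levels, and its log2 fold change was -0.05 (95% interval -0.39 to 0.29, edgeR FDR 0.899).

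**Figure D5:**
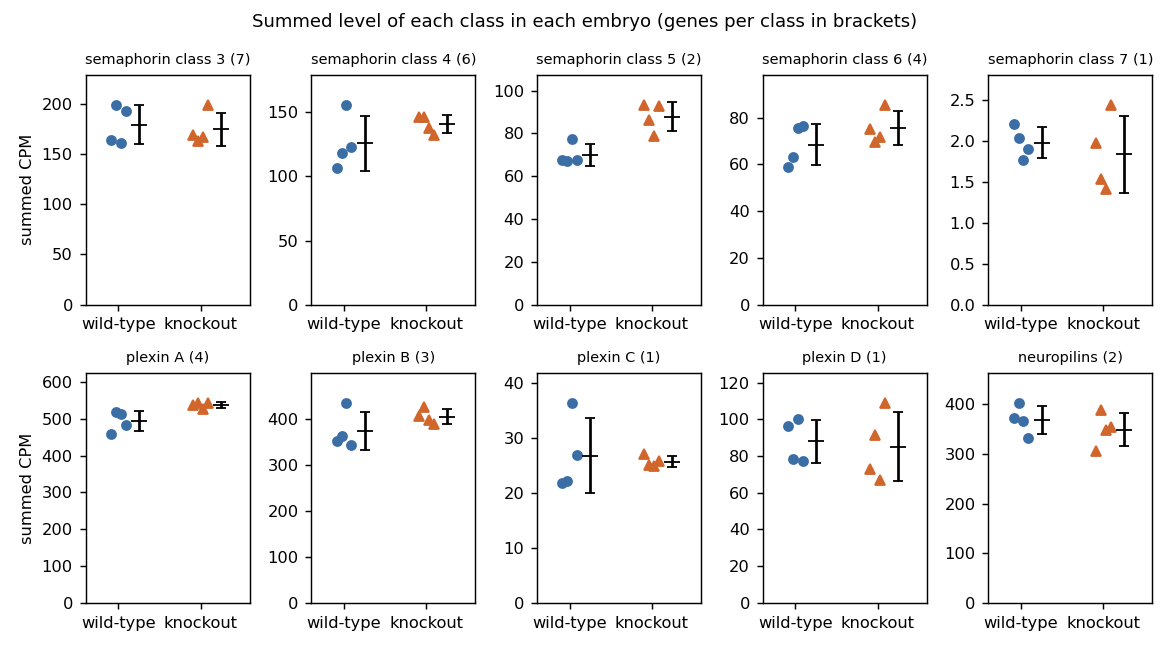
Summed CPM (vertical axes, each from 0) of the genes of each class in every wild-type embryo (circles) and knockout embryo (triangles), with mean and SD of each group of 4 and the number of genes per class in brackets. The groups separate for class 5 semaphorins and for A plexins and overlap in the other 8 panels.

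The neuropilins stayed within narrow bounds. Nrp1, the co-receptor of Sema3a and of VEGF, had levels of 155, 199, 155 and 156 CPM in wild-type and of 126, 186, 182 and 150 CPM in knockout embryos. Nrp2, the co-receptor of Sema3f, had levels of 218, 204, 211 and 177 CPM in wild-type and of 179, 201, 166 and 204 CPM in knockout embryos. Embryos of both genotypes were mixed for each gene. The log2 fold changes were -0.04 for Nrp1 (95% interval -0.34 to 0.25, edgeR FDR 0.892) and -0.11 for Nrp2 (95% interval -0.30 to 0.09, edgeR FDR 0.558), and both intervals lie inside a 1.5-fold change in either direction.

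Genes that work with these receptors were read from fixed lists of co-receptors, VEGF ligands and plexin effectors. Of the 57 genes tested, 33 estimates were above and 24 below 0, the median log2 fold change was 0.04, 13 (22.8%) had an unadjusted p under 0.05, against 17.4% of all genes tested, and 1 passed the FDR threshold, against 0.973% of all genes. Without wild-type embryo 3, 13 had an unadjusted p under 0.05, against 23.8% of all genes. In that fit 3 passed the FDR threshold, where 490 of 14178 genes over the whole table did. The gene past the threshold with all embryos was Mical2, a flavoprotein monooxygenase that oxidises actin and belongs to the family of MICAL proteins bound by A plexins. Mical2 had levels of 55.5, 46.9, 41.5 and 50.8 CPM in wild-type and of 27.3, 23.4, 29.3 and 29.1 CPM in knockout embryos. Every knockout embryo was far below every wild-type embryo, with a log2 fold change of -0.84 (SE 0.11, edgeR FDR 0.00628). Mical2 lies on chromosome 7 at 119369370 to 119498708 (mm9). It fell together with the cardiomyocyte markers, and their part in its decrease was not tested.

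The 5 next smallest p-values of these lists missed the FDR threshold. Dpysl3, a CRMP-type effector of semaphorin signalling in growth cones, was 152 ± 10.04 CPM in wild-type and 122 ± 10.4 CPM in knockout embryos (log2 fold change -0.31, edgeR FDR 0.0866). Vegfb, a ligand of Nrp1 and Flt1, was 31.0 ± 1.94 and 39.2 ± 3.05 CPM (0.34, edgeR FDR 0.0887). Pgf, placental growth factor, gave -0.56 (edgeR FDR 0.182). Gipc1, an adaptor that binds the tail of Nrp1, and Erbb2, a receptor tyrosine kinase that associates with Plxnb1, gave 0.18 and 0.22 (edgeR FDR 0.188 and 0.193). By list, 3 of 16 co-receptors and partners, 3 of 5 VEGF family ligands and 7 of 36 effectors had an unadjusted p under 0.05, which is 18.8%, 60% and 19.4% beside the 17.4% of all genes. Without wild-type embryo 3 they numbered 3, 2 and 8, beside 23.8% of all genes. Kdr, the VEGF receptor that pairs with Nrp1, was at 74.3 to 136 CPM over both groups and gave -0.14 (edgeR FDR 0.681).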

How the data were processed

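RNA sequencing libraries of 4 Isl1 knockout and 4 wild-type embryos were compared, with groups and replicate numbers taken from the titles. The authors mapped reads to mm9 with STAR and counted them over RefSeq exons with HOMER, on both strands, so the deposited values are raw counts per transcript without normalization. Plxna1, Plxna4 and Plxnb1 share 970, 110 and 210 exon bases with genes on the opposite strand. With both strands counted, reads in those stretches cannot be assigned to 1 gene. Nrp1 shares 80 bases with Mir1903 on the same strand. Deposited RPKM values had been computed with edgeR by the authors, and the deposited length column gives transcript lengths in bases. The deposited columns of fold changes, test statistics and p-values hold the authors' DESeq2 comparison and were not used. Tool versions of the authors were not given in the sources used here.

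One transcript entry was kept per symbol, which held for 18 members with a single entry and was a choice for 13. Counts were tested in R 4.3.3 with edgeR 4.0.16 (filterByExpr, TMM, quasi-likelihood test, two-sided, Benjamini-Hochberg over 14075 genes, threshold FDR 0.05). Alternatives used DESeq2 1.42.0, limma 3.58.1 on log2(RPKM + 1) and log2(RPKM + 0.1), other size factors, no low-count filter, the longest entry, a Y-linked covariate, the replicate number as a block, and each embryo left out. The fit was tested on simulated data. Plots used Python 3.11.15 and matplotlib 3.10.9. Positions came from GENCODE on NCBIM37 (mm9), where all 31 members were found. Library totals of 18916449 to 26153048 reads set the counting precision, and without molecular identifiers this covers counting error only. Nothing said whether embryos of a group shared a litter, so p-values measure the spread between these embryos.

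The members and gene lists were chosen with earlier results of these data known. Named in full, by rule, were members past a threshold or without overlap and the 2 most abundant ligands, plexins and neuropilins each, with Isl1 and, from the pathway lists, genes past the FDR and the 5 next smallest p-values. Sema3c, Sema4a, Sema6c, Plxna2 and Plxnd1 were given per embryo after their values were seen, as were Ttr and Timd2. Figf and Spink3 were not found by symbol, and Msc, Trem2 and Tyrobp had too few reads to be tested.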

Additional observations from a re-analysis of the deposited data

Results flagged for a closer look

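In groups of 4 embryos, a single embryo lay far from the other 3 in 11 of 106 groups examined. Far meant a gap, relative to the range, past Dixon's 95% critical value, which chance passes in about 1 in 20 groups. Class sums were examined beside their own members, so the groups are not independent and the count cannot be read as an excess. Among receptors, Nrp1 was at 199 CPM in wild-type embryo 2, against 155 to 156 CPM in the other wild-type embryos. Plxna4 was at 39.3 CPM in wild-type embryo 3, against 46.4 to 47.5 CPM. Plxnb2 was at 306 CPM in knockout embryo 2, against 259 to 266 CPM in the other knockout embryos.

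Among ligands, Sema3b was at 6.53 CPM in knockout embryo 1, against 7.01 to 7.09 CPM, and Sema5b was at 27.6 CPM in wild-type embryo 1, against 29.3 to 29.6 CPM, so both gaps were small. Knockout embryo 4 stood above the rest of its group for Sema3d (25.3 CPM, others 17.6 to 18.7), Sema6b (4.70 CPM, others 3.56 to 3.71) and the class 3 sum (199.7 CPM, others 164 to 170). The class 5 sum was 77.5 CPM in wild-type embryo 3, against 67.3 to 67.7 CPM. Of the marker lists, the neural crest sum was 510 CPM in wild-type embryo 3 (others 672 to 704), and the neural tube sum was 353 CPM in knockout embryo 1 (others 255 to 271).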

How the results depend on the processing

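No member passed the FDR threshold in edgeR or limma under any alternative, and 1 did in DESeq2 (Sema4g). Sema4g had an unadjusted p under 0.05 under all 16 alternatives and Sema5b under all but the Y-linked covariate. Single-embryo removal gave 2 to 13 members with an unadjusted p under 0.05, 2 to 9 without overlap, and 0 to 4 past 1.5-fold. The highest value of each came without wild-type embryo 3. Without wild-type embryo 2 or knockout embryo 4, 5 of 30 members had an unadjusted p under 0.05 (13.8% and 12.2% of all genes did). Without wild-type embryo 2, knockout embryo 2 or knockout embryo 4, 4 of 30 did not overlap (13.7%, 17.3% and 12.5% of all genes). The members with an unadjusted p under 0.05 numbered 5 with no low-count filter, 8 with limma on log2(RPKM + 1), 5 with limma on log2(RPKM + 0.1) and 5 with the Y-linked covariate, where 1 (Sema4g) passed 1.5-fold. The share of all genes under that p was not computed for these fits, so the counts cannot be read as particular to the members. Pathway genes past the FDR numbered 3 in DESeq2 (Mical2, Dpysl3, Vegfb), where 5.04% of all genes passed. With an embryo left out they numbered 1 to 3. The 3 without wild-type embryo 3, where 490 of 14178 genes passed, were Mical2, Dpysl3 and Erbb2. The A plexin log2 ratio was 0.19 in summed RPKM. The cause of these shifts was not tested.

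Of 480 values of single members, 457 kept direction and side of the threshold and 22 reversed, in 6 genes whose estimates lay near 0. With limma on log2(RPKM + 1) these were Sema6d at 0.0274, Nrp1 at 0.00464 and Plxnc1 at 0.0108. With log2(RPKM + 0.1) they were Sema6d at 0.0390, Nrp1 at 0.00441 and Plxnc1 at 0.0234. With the Y-linked covariate they were Sema4c at -0.0327, Nrp1 at 0.0555, Plxnd1 at 0.0523 and Plxnb1 at -0.00449. With an embryo left out, Sema4c ranged from -0.0500 to 0.114, Plxnd1 from -0.187 to 0.0515, Nrp1 from -0.116 to 0.0574, Plxnc1 from -0.148 to 0.121 and Sema6d from -0.101 to 0.104.

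With the replicate block, 5 members had an unadjusted p under 0.05 (Plxna4 and Sema6b besides Sema4g, Sema5b and Sema6c), none passed the FDR, and 76 genes of the whole table did, compared with 137 without the block. The share of all genes with an unadjusted p under 0.05 was not computed with the block. Same-numbered embryos deviated together at r = 0.124, 0.195, 0.0355 and 0.559 across genes, and 1 of 4 wild-type embryos correlated best with its own number, so the number was not taken as a pairing. By standard error, the least precise members tested were Sema4a (0.57), Sema4f (0.30), Sema3c (0.26), Sema6b (0.23) and Sema7a (0.22), and Plxnb3, with 11 reads in all, was too low to test.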
